A study of Caenorhabditis elegans with 12 samples.

Results

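Embryos of the *lin-54(n2990)* mutant were compared with wild-type N2 embryos on 6 of the 12 Affymetrix arrays of the study, with 3 biological replicates of each genotype, called W1, W2 and W3 for wild-type and M1, M2 and M3 for the mutant. The 6 arrays were chosen by their tissue, and none was left out. The allele n2990 is a partial loss-of-function missense allele. Animals were propagated at 20 °C, and synchronized larvae of both genotypes were then grown at 25 °C to young adults. Embryos were released from young adults with alkaline bleach and passed through a mesh, so each array holds RNA of a pellet of many whole embryos whose ages were not fixed by the labels. The 6 other arrays hold dissected germlines of wild-type animals and of the null allele *lin-54(n3423)*, grown at 20 °C.

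LIN-54 is the DNA-binding tesmin protein of the DRM complex, which also holds the retinoblastoma homolog LIN-35, the E2F and DP proteins EFL-1 and DPL-1, and several synMuv B proteins. The complex is known to repress some genes and to activate others, and related complexes of flies and mammals control cell cycle and developmental genes. A *C. elegans* embryo starts with RNAs laid down by the mother's germline, then transcribes its own early genes, and later switches on the programmes of gut, muscle, pharynx, neurons and epidermis, so a bulk embryo sample carries maternal, early zygotic and differentiated-tissue RNA at once. In such samples fewer cells of a type and less RNA per cell cannot be told apart.

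The values are RMA expression levels on a log2 scale for 21541 probe sets of 17675 genes. A probe set was called when it differed at least 1.5-fold between mutant and wild-type and limma's unadjusted p did not exceed 0.01, and a gene was called when at least 1 of its probe sets was. By this rule 677 genes (3.83% of those tested) rose and 298 (1.69%) fell, and 51 and 3 genes passed an adjusted p of 0.05 with the same fold. Deviations of same-numbered arrays correlated at 0.246 to 0.362, and those of M3 and W1 at 0.2355. With the replicate number as a block 858 genes (4.85%) rose and 677 (3.83%) fell. The counts of rises and falls were 390 and 97 without W1, 402 and 72 without W3, 347 and 74 without M1 and 1334 and 1056 without M3. The detection call was present for 50.3% to 55.6% of the probe sets on each array. The wild-type arrays correlated with each other at 0.986 to 0.995 (Pearson, across probe sets). M3 correlated with them at 0.989, M1 at 0.973 to 0.979 and M2 at 0.928 to 0.944.

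*lin-54* itself was at 10.10 ± 0.09 (SD, n = 3) in wild-type embryos and at 10.58, 10.67 and 10.34 in the mutant. The groups did not overlap, the log2 change was 0.42 (SE 0.11, adjusted p = 0.119), and the gene was not called. A missense allele need not alter its RNA, so this level checks no label. Markers of oocytes and the adult germline (*rme-2*, *cpg-1*, *cpg-2*, *gld-1*, *syp-1*, *him-3*) had a summed linear level of 2441 to 4436 on wild-type arrays and of 5335 to 13200 on mutant arrays, and 2 of the 6 rose. The sperm list of 38 genes summed to 5550 to 6512 and 5958 to 7989, with none called and 29 of its 44 probe sets present on no array. None of the 10 vitellogenin probe sets was present on any array. Of the 4 markers of hatched larvae (*nlp-29*, *lys-1*, *abf-2*, *cnc-2*) only *lys-1* was called, and the list summed to 1002 to 1353 in wild-type and 488 to 941 in mutant embryos. The part of any of these cells or stages in the results was not tested.

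Among called genes whose mutant and wild-type arrays did not overlap, the largest increases were in genes of varied function. *fipr-17*, a relative of the fungus-induced peptides, was at 6.95, 7.16 and 6.93 in wild-type embryos and at 10.39, 10.75 and 10.33 in the mutant, an 11.1-fold rise (log2 change 3.48, SE 0.14, adjusted p = 0.0018). *rnh-1.3*, which encodes an RNase H, went from 6.68, 7.26 and 6.81 to 9.88 ± 0.26 (SD, n = 3), at least 7.78-fold higher (adjusted p = 0.0131), since it was called present on no wild-type array. The uncharacterized gene C54D10.10 went from 8.68, 8.89 and 8.89 to 11.56, 11.57 and 11.30 (2.66, SE 0.11, adjusted p = 0.0018). For all 3 genes the mutant arrays lay close together and more than 2 log2 units above the highest wild-type array. The chemoreceptor genes *srh-16* (at least 5.35-fold, adjusted p = 0.0018) and *srd-4* (at least 5.38-fold, adjusted p = 0.0131) were present on 0 wild-type and on 3 mutant arrays, although these receptor classes are best known from sensory neurons. F37D6.3 (2.71), C33C12.4 (2.67), the DnaJ gene *dnj-26* (2.60), *syp-1* (2.35), T28A8.6 (2.28), F35G2.3 (2.15), *cpg-2* (2.11), F14H3.3 (1.96), Y47G6A.3 (1.95) and *hpo-32* (1.94) complete the 15 largest. C33C12.4 was also present on no wild-type array, so that its rise was at least 6.39-fold. Such a bound sets the undetected group at its own level, which on each array was above the lowest level of a present probe set (3.99 to 4.08), and the order of these genes among the largest rests on bounds. Each call was kept whichever array was left out, except that of *cpg-2*, which was lost without W1, W3, M1 or M2. The probe sets of *fipr-17* and C33C12.4 have names that mark sequence shared with other transcripts.

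Among called genes whose mutant and wild-type arrays did not overlap, the largest decreases were led by digestive and secreted proteins. Some genes that were not called had larger mean decreases, down to -3.11 among collagens and -2.93 among transthyretin-related genes. *asp-1*, a gut aspartyl protease, fell from 11.31, 10.98 and 11.55 to 9.06, 7.48 and 10.09 (log2 change -2.40, SE 0.64, adjusted p = 0.12). The proteases *asp-6* (-2.26, SE 0.44) and *asp-5* (-1.81, SE 0.43) also fell. *clec-17*, which encodes a C-type lectin, went from 8.78, 8.44 and 8.83 to 7.08, 6.01 and 7.26 (-1.90, SE 0.34, adjusted p = 0.0906) and was present on 3 wild-type and 0 mutant arrays. In *asp-1* the mutant arrays were spread over more than 2 log2 units, with M2 lowest and M3 nearest to wild-type. The other 11 were Y64H9A.2 (-2.24), F54D5.3 (-1.77), the transthyretin-related *ttr-24* (-1.71), *pud-2.2* (-1.70), the *odr-2* homolog *hot-5* (-1.62), *dod-6* (-1.59), the pharyngeal gland gene *phat-5* (-1.55), the glutathione S-transferase gene *gst-10* (-1.53), the sugar alcohol dehydrogenase gene *sodh-1* (-1.52), F18A11.5 (-1.48) and K08E7.5 (-1.47). The calls of *clec-17* and *pud-2.2* were kept whichever array was left out. That of *asp-6* was lost without M1, and each of the other 12 was lost on leaving out at least 3 of the 6 arrays, W1 among them. *hot-5* and *dod-6* were also not called with the replicate block.

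**Figure D1:**
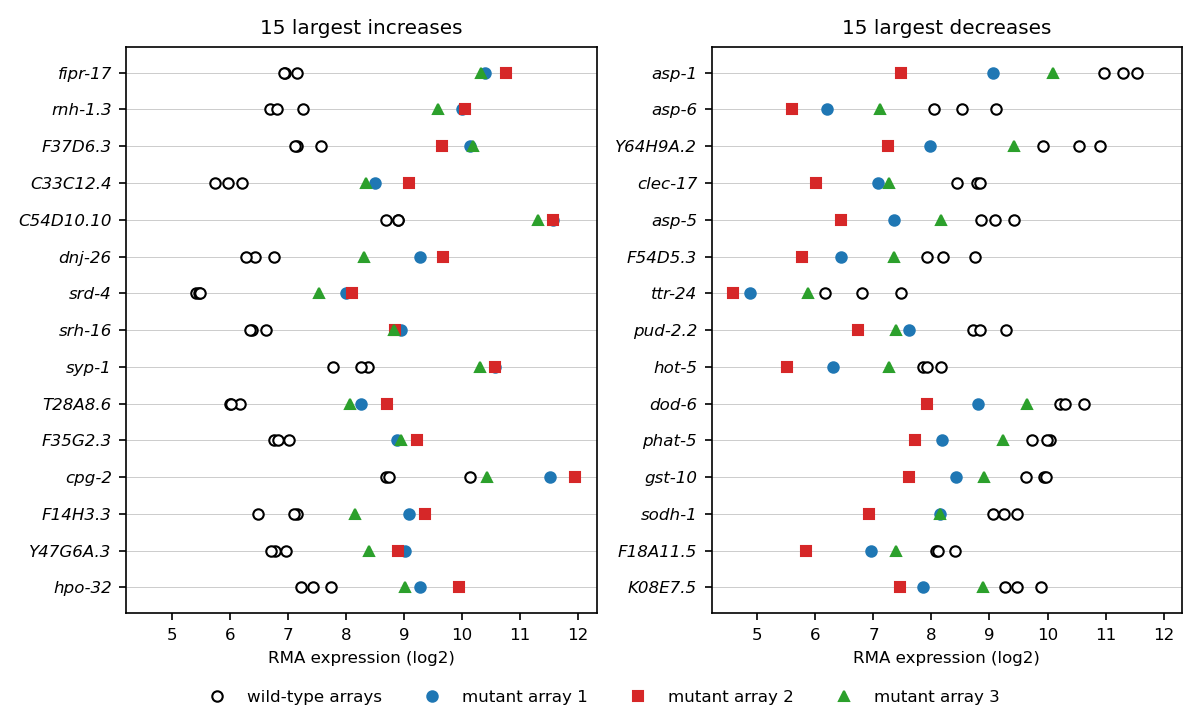
RMA expression level (log2, horizontal axis) of the 15 genes with the largest increase (left) and decrease (right) on each of the 3 wild-type (open circles) and 3 mutant (filled symbols) embryo arrays. The genes were taken from called genes whose groups did not overlap. The mutant arrays of *fipr-17*, *srh-16* and C54D10.10 nearly coincide, whereas those of *asp-1* run from 7.48 to 10.09.

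The F-box B family rose more widely than any other of the 182 gene families examined that had at least 10 members. F-box proteins are the substrate adaptors of SCF ubiquitin ligases, and *C. elegans* has several large families of them. Of 99 *fbxb* genes on the arrays 48 (48.5%) were called up, against 3.83% of all genes, and none down, with a median log2 change of 0.67 against 0.01 over all genes. *fbxb-90* was at 9.07, 8.99 and 9.05 in wild-type and at 10.15, 10.10 and 10.03 in mutant embryos (1.06, SE 0.07, adjusted p = 0.0131). *fbxb-67* went from 7.81, 8.07 and 7.82 to 8.97, 9.43 and 8.84 (1.18, SE 0.17), *fbxb-71* rose by 1.09 (SE 0.14) and *fbxb-33* by 1.06 (SE 0.27). Both groups of arrays were tight and well apart in *fbxb-90*, and for 77 of the 99 genes every mutant array lay above every wild-type array, as for 15.8% of all genes. Changes in single members ran from -1.09 to 1.18. The count was 29 without W3 and 33 to 52 with any other array left out. The call of *fbxb-33* was lost without M1 or any wild-type array.

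Other F-box and BTB families did not move to the same extent. Over all genes 3.83% were called up, beside 11.4% of *bath*, 2.13% of *math* and 11.1% of *skr* genes. Of 43 *fbxc* genes 11 (25.6%) rose, with a median of 0.26, led by *fbxc-32* (1.17, SE 0.19), *fbxc-38* (1.07, SE 0.22) and *fbxc-22* (0.99, SE 0.16), and 6 did without W3. Of 160 *fbxa* genes 7 (4.38%) rose, with a median of 0.04, and 2 did without M1, 3 without W3 and 14 without M3. The *fbxa* probe sets were dimmer, 98 of 170 being present on no array against 13 of 101 for *fbxb*. Among genes with a probe set present on at least 3 of the 6 arrays, 6 of 44 *fbxa*, 47 of 83 *fbxb* and 11 of 32 *fbxc* genes were called up. Among the BTB and MATH domain genes *bath*, known as adaptors of cullin 3 ligases, 4 of 35 rose (*bath-5* by 1.89, SE 0.33, *bath-27* by 1.28, SE 0.31, *bath-31* by 0.98 and *bath-33* by 0.92), while 1 of 47 *math* genes did, and none with the block or without any array other than M3. The *bath* count was 12 without M3, 2 without W3 and 1 without M1. Of the 18 Skp1-related *skr* genes, the SCF core partners of F-box proteins, 14 had a higher mean and 2 rose, while 0 did without W1 or M2, 1 without M1 and 4 without M3. These sequences are related, so probe sets may read several members. On probe sets whose names mark no shared sequence, 42 of 87 *fbxb* genes and 8 of 39 *fbxc* genes were called up.

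**Figure D2:**
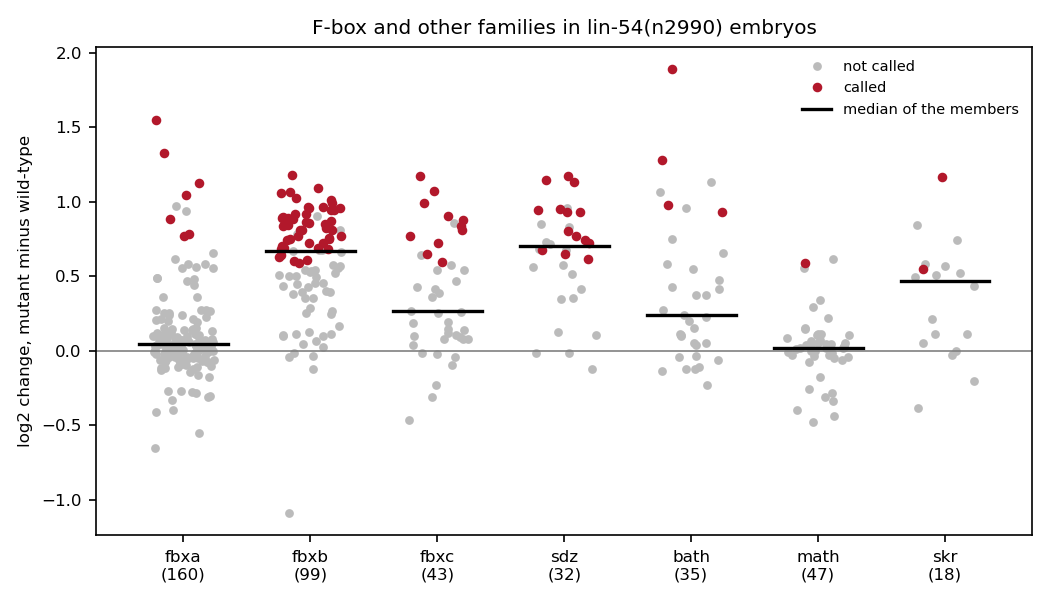
Log2 change (mutant minus wild-type) (mean of a gene's probe sets) of each member of the F-box families *fbxa*, *fbxb* and *fbxc*, of *sdz* and of the *bath*, *math* and *skr* families, with the number of genes in brackets. Red points are called genes and bars are medians, which stand at 0.67 for *fbxb*, 0.70 for *sdz* and 0.04 for *fbxa*.

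Genes that mark the start of zygotic transcription rose as well. The *sdz* class is named for SKN-1-dependent zygotic transcripts, and 14 of its 32 genes (43.8%) rose and none fell, with a median of 0.70. *sdz-1* was at 8.40, 8.94 and 8.65 in wild-type and at 9.76, 10.14 and 9.53 in mutant embryos (1.14, SE 0.20), without overlap. *sdz-16* (1.17), *sdz-13* (1.13) and *sdz-14* (1.12) rose by as much. The *sdz* count was 8 without W1, 9 without W3 or M1 and 19 without M3. Of 16 early zygotic fate genes all had a higher mean, against 51.5% of all genes, with a median of 0.60. Of these, 5 (31.2%) rose, against 3.83% of all genes. *vet-1*, a very early transcript, went from 10.66, 9.91 and 10.46 to 11.41, 11.73 and 11.37 (1.16, SE 0.21). *hlh-25*, a helix-loop-helix gene of the REF-1 family, rose by 1.07 (SE 0.16), the early transcript gene *pes-10* by 0.97 (SE 0.14), the nuclear receptor gene *nhr-2* by 0.79 (SE 0.10) and the forkhead gene *pes-1* by 0.75 (SE 0.20). The first 4 calls were kept whichever array was left out. The count of 5 became 8 without M3 and 8 with the replicate block. Of the endoderm GATA genes, *end-1* changed by 0.61 (SE 0.21) and *end-3* by 0.26 (SE 0.15), and neither was called, though *end-1* was with the replicate block.

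Among transcription factor classes 6.56% of *ceh*, 5.56% of T-box, 4.76% of *hlh* and 1.15% of *nhr* genes were called up, against 3.83% of all genes. Of 61 homeobox *ceh* genes 4 rose and none fell, namely *ceh-76* (1.15, SE 0.20), *ceh-49* (1.14, SE 0.23), the PBC-class *ceh-40* (0.80, SE 0.16) and *ceh-41* (0.64, SE 0.12). The calls of *ceh-76* and *ceh-40* were kept whichever array was left out, and the family count was 2 without W1. *ceh-40* lost its call with the replicate block. Of 260 nuclear receptor genes 3 rose (*nhr-2*, *nhr-232* by 0.61 and *nhr-162* by 0.59) and 1 fell (*nhr-98*, -0.59), of which *nhr-232* was not called with the block and only 1 rise was without M1. The *nhr* decreases were 3 with the block, 8 without M3 and 0 without W3, M1 or M2. *tbx-39* was the only T-box gene called (0.96, SE 0.25), though not with the block or without W1, W2 or M1, and none of the 5 *elt* GATA genes was. In the list of Hox and patterning genes only *ceh-40* rose among 21 (4.76%), and 2 genes did without M3. *pal-1*, a caudal homolog, changed by 0.49 (SE 0.14), *lin-39* by -0.09 (SE 0.14) and *mab-5* by -0.43 (SE 0.19), none of them called, though *pal-1* was with the block. The Notch ligand gene *dsl-1* went from 10.05, 10.61 and 10.13 to 11.42, 11.66 and 11.25 (1.18, SE 0.18). The groups were apart by more than 0.6 units, and *pen-2*, which encodes a gamma-secretase subunit, also rose (0.72, SE 0.19), but was not called with the replicate block. The receptor genes *lin-12* (0.29, SE 0.14) and *glp-1* (0.59, SE 0.24) were not called, so 2 of the 18 Notch pathway genes (11.1%) rose. The count was 1 with the block or without W1, W3, M1 or M2.

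Germline genes were higher as groups, though few passed the test. Synaptonemal complex and meiotic axis genes had the highest median of the 35 lists (1.08), with all 12 higher. Of the 12 genes 5 (41.7%) were called up, against 3.83% of all genes. *syp-1*, a central element gene, was at 8.37, 7.78 and 8.26 in wild-type and at 10.57, 10.57 and 10.30 in the mutant. *lab-1* (1.37, SE 0.29), the HORMA domain genes *htp-2* (1.22, SE 0.24) and *htp-1* (1.02, SE 0.25) and *syp-3* (0.93, SE 0.23) also rose, and in the *syp* family 3 of 6 genes did with *syp-6* (1.03, SE 0.25), which was not called with the replicate block. The *syp* count was 1 without W1, W3 or M1 and 6 without M3. The list's count of 5 fell to 1 without W3 and to 2 without W1 or M1, and was 11 without M3. *him-3* (1.27, SE 0.36) and *syp-2* (1.13, SE 0.39) had changes of similar size and were not called, *him-3* being called with the replicate block.

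Of 23 meiotic pairing and recombination genes 3 rose, namely the zinc finger pairing gene *zim-2* (1.43, SE 0.31), the gene of the break-making enzyme *spo-11* (1.22, SE 0.29) and the nuclear envelope gene *sun-1* (0.93, SE 0.25), and the list's median was 0.57 (0.35 without M2). None of the 3 was called without any 1 of W1, W2 and W3 or M1, and 12 genes were called without M3. *spo-11* was not called with the block. Among 15 P granule genes all had a higher mean (median 0.57, or 0.33 without M2), but only *glh-1*, an RNA helicase gene, rose. It was at 7.98, 8.09 and 7.73 in wild-type and at 9.10, 9.19 and 8.89 in mutant embryos (1.12, SE 0.13, adjusted p = 0.0495), with no wild-type array and every mutant array called present. *pgl-3* (1.03, SE 0.31) and *pgl-1* (0.48, SE 0.27) were not called, *pgl-3* being called with the block. The P granule count was 4 with the replicate block, 2 without W2 and 8 without M3.

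Maternal and oocyte lists stood at similar medians with hardly a call. Of germline RNA regulators 5.0% and of eggshell genes 7.14% were called up, against 3.83% of all genes. Germline RNA regulators had a median of 0.56 with all 20 higher and *rnp-8* (1.01, SE 0.22) called, and maternal cell-fate RNA-binding proteins had a median of 0.52 with 0 of 15 called. Without M2 these medians were 0.23 and 0.25, and without M3 they were 0.85 and 0.81. *pie-1*, a repressor of transcription in the germ lineage, was at 8.62, 9.36 and 8.77 in wild-type and at 9.58, 10.22 and 8.97 in mutant embryos. The groups overlapped, because M3 lay below W2. Among 14 eggshell and egg activation genes, with a median of 0.79 (0.51 without M2), the proteoglycan gene *cpg-2* was called. Its values were 8.68, 10.14 and 8.74 in wild-type and 11.52, 11.95 and 10.43 in the mutant, again with W2 the highest of its group and M3 the lowest of its own. With the replicate block 5 germline RNA regulators, 2 maternal cell-fate genes and 5 eggshell genes rose, and without M3 the counts were 8, 5 and 10. No germline RNA regulator was called without W1, W3 or M1, and no eggshell gene without any of these or M2. The innexin genes *inx-21* (1.70, SE 0.22) and *inx-22* (1.65, SE 0.25), which encode gap junction subunits of the germline, were chosen after their values were seen. They rose, while the median over the 22 innexin genes was -0.43.

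Small RNA genes rose in part, with 14.3% of the RNA interference list called up, against 3.83% of all genes. Of 35 genes of RNA interference 5 rose, with a median of 0.37, namely the RNA-directed polymerase gene *ego-1* (1.24, SE 0.32), the Argonaute genes *sago-2* (0.85, SE 0.22) and *hrde-1* (0.80, SE 0.19), the exonuclease gene *eri-1* (0.71, SE 0.17) and the double-stranded RNA-binding gene *rde-4* (0.68, SE 0.16). None was called without W1 or W3, 1 was without M1, 3 were without W2 or M2, and 9 were without M3. *ego-1* and *eri-1* were not called with the replicate block. *dcr-1* (0.56, SE 0.56) and *rde-1* (0.44, SE 0.27) were not called. Genes of small RNA maturation picked after their values were seen were *tofu-7* (1.40, SE 0.31), *tost-1* (0.90, SE 0.15), the methyltransferase gene *henn-1* (0.82, SE 0.18), *erh-2* (0.67, SE 0.13) and *gtsf-1* (0.63, SE 0.15), all called. *tost-1* was abundant, at 12.06, 12.29 and 12.30 in wild-type and 13.16, 13.36 and 12.83 in mutant embryos. Its call was kept whichever array was left out, unlike those of the other 4, and *gtsf-1* was not called with the replicate block.

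Cell division and genome maintenance lists had higher medians. The share called up was 4.17% for DNA replication and 12.9% for kinetochore and centrosome genes, against 3.83% of all genes. It was 9.09% for cyclins and cell cycle kinases and 26.3% for DNA damage genes. All 24 DNA replication genes had a higher mean (median 0.42), and 1, the replication kinase gene *cdc-7* (0.83, SE 0.18), rose. The replication count was 0 without W1 or M1, 3 without W3 and 5 without M3. Of 31 kinetochore and centrosome genes 4 rose, with a median of 0.38, namely *kbp-1*, *kbp-3* and *kbp-4*, whose products bind the kinetochore protein KNL-1, and the centriole gene *sas-6* (0.75, SE 0.14). *kbp-1* went from 10.28, 10.57 and 10.40 to 11.68, 11.96 and 11.23 (1.21, SE 0.20), and *kbp-3* from 12.19, 11.89 and 12.36 to 12.98 ± 0.08 (SD, n = 3) (0.84, SE 0.13). The mutant arrays lay above the wild-type arrays in both, and all 4 calls were kept whichever array was left out. Without M3, 10 genes of this list were called.

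Of 33 cyclin and cell cycle kinase genes 3 rose, namely the phosphatase gene *cdc-14* (1.05, SE 0.25), the anaphase-promoting complex gene *mat-2* (0.93, SE 0.18) and *cdk-7* (0.62, SE 0.08). The value of *cdc-14* is that of 1 probe set, and the mean over its probe sets was 0.21. *cdk-1* changed by 0.37 (SE 0.11) and *cye-1* by 0.46 (SE 0.20). The list's median was 0.26, and 5 genes rose with the replicate block or without M3. Of 19 DNA damage genes 5 rose, led by the translesion polymerase gene *polh-1*, which went from 8.06, 8.27 and 7.96 to 9.34, 9.64 and 9.02 (1.24, SE 0.18). The excision repair gene *xpa-1* (0.84, SE 0.17), the p53 homolog *cep-1* (0.75, SE 0.18) and the checkpoint gene *mrt-2* (0.74, SE 0.18) were next. *polh-1* alone of these 4 kept its call whichever array was left out, *cep-1* lost its call with the replicate block, and the list's count was 1 without W1, W2, W3 or M1, 2 without M2 and 7 without M3. Genes of telomere-binding proteins, picked after their values were seen, were *pot-2* (0.98, SE 0.21) and *pot-1* (0.82, SE 0.15), both called, the former not without W1, W3 or M1.

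Smaller families with several called increases were those of RNase H (3 of 5 genes, with *rnh-2* at 0.78 and *rnh-1.2* at 0.67 beside *rnh-1.3*), Mediator (3 of 17, *mdt-22*, *mdt-28* and *mdt-8*), pre-mRNA splicing (3 of 13, *prp-38*, *prp-3* and *prp-18*), DnaJ chaperones (4 of 28, with *dnj-15*, *dnj-30* and *dnj-28* beside *dnj-26*), SET domain proteins (3 of 28, *set-21*, *set-22* and *set-13*), vacuolar sorting (3 of 31, *vps-60*, *vps-24* and *vps-39*) and short-chain dehydrogenases (3 of 30, *dhs-8*, *dhs-11* and *dhs-9*). *set-21* rose the most of these after *rnh-1.3*, *dnj-26* and *dhs-8*, from 8.21, 8.37 and 8.03 to 9.39, 9.79 and 9.10 (1.23, SE 0.19). The median was 0.67 for *rnh*, 0.43 for *mdt* and 0.38 for *prp*, and -0.04 for *dhs* (0.06 with median-centred arrays). The *prp* count was 1 with the replicate block and without W2 or any mutant array, and the *mdt* count was 1 without W3 or M1. Without M3 the counts were 7 for *set* and 5 for *dhs*.

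The chromatin lists were short. Called up were 25.0% of DRM subunit genes, 13.6% of other synMuv B and heterochromatin genes and 7.14% of dosage compensation genes. The share over all genes was 3.83%. Among the 8 DRM subunit genes all had a higher mean (median 0.55), and *lin-37* (0.69, SE 0.15) and *efl-1* (0.68, SE 0.17) rose. For 7 of the 8 every mutant array lay above every wild-type array, as for 15.8% of all genes. The count of called DRM subunit genes was 4 with the replicate block or without M3, 1 without W1 or M2, and 0 without W3 or M1. Of 22 other synMuv B and heterochromatin genes 3 rose, namely the heterochromatin protein gene *hpl-2* (0.68, SE 0.14), the acetyltransferase gene *mys-1* (0.60, SE 0.13) and *lin-15B* (0.59, SE 0.15). Only *hpl-2* was also called with the replicate block, and the count was 0 without W3 or M2 and 1 without W1. None of 10 MES and germline chromatin genes was called (*mes-2* 0.52, SE 0.30, and *mes-4* 0.37, SE 0.14). Of 14 dosage compensation genes 1 rose, the sex determination switch gene *xol-1* (0.79, SE 0.19), whose call was lost without any 1 of W1, W2 and W3, while *sdc-2* changed by 0.75 (SE 0.61) and *dpy-27* by 0.16 (SE 0.19). Without M3, 2 genes of that list were called.

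Muscle genes were lower as a group. All 23 body wall muscle contractile genes had a lower mean, with a median log2 change of -1.18, the lowest of the 35 lists (-0.66 without M2), and for 17 of them every mutant array lay below every wild-type array, as for 17.2% of all genes. Of the 23 genes 2 (8.7%) were called down, against 1.69% of all genes. They were *lev-11*, the tropomyosin gene, and *tnt-2*, a troponin T gene (-1.09, SE 0.25). *lev-11* went from 8.06, 7.75 and 8.01 to 6.52, 5.71 and 7.23 (-1.45, SE 0.37) on 1 of the 2 of its 7 probe sets that passed. *unc-15*, which encodes paramyosin, was at 11.35, 11.06 and 11.46 in wild-type and at 10.14, 8.23 and 10.51 in mutant embryos (-1.66, SE 0.59, adjusted p = 0.165). M2 was the lowest array in both genes, and the spread between the mutant arrays of *unc-15* exceeded its change. The myosin gene *myo-3* (-1.39, SE 0.53) and *unc-22* (-0.43, SE 0.28) were not called. The count was 0 without W1, W3 or M1, 3 without W2, 5 without M2, 11 without M3 and 6 with the replicate block. Of 16 muscle attachment genes 2 (12.5%) fell, with a median of -0.56 (-0.29 without M2). They were the talin gene *tln-1* (-1.03, SE 0.26, or -0.37 as the mean of its probe sets) and the myosin chaperone gene *unc-45* (-0.70, SE 0.18). No gene of this list was called without W1, W3 or M1, 1 was without W2, and 3 were with the replicate block or without M2, and 7 without M3. The muscle fate gene *hlh-1* changed by 0.11 (SE 0.18), unlike the contractile genes, and the difference between them was not tested.

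Most intestinal genes had a lower mean, and 12.5% were called down, against 1.69% of all genes. Of 32 intestinal genes 4 fell, *asp-1*, *asp-6*, *asp-5* and the lysozyme gene *lys-1* (-1.29, SE 0.30), with a median of -0.43 and 30 lower. The brush border actin gene *act-5* was at 10.89, 10.49 and 10.78 in wild-type and at 9.85, 8.60 and 10.13 in mutant embryos (-1.19, SE 0.40) and was called with the replicate block and without M2. The GATA factor genes *elt-2* (-0.22, SE 0.10) and *elt-7* (0.33, SE 0.18) and the esterase gene *ges-1* (0.16, SE 0.10) were not called, and their groups overlapped. The difference between these genes and the called ones was not tested. The intestinal count was 11 with the replicate block, 8 without M2, 9 without M3, 1 without W1 or W3 and 0 without M1. Over all 12 aspartyl protease genes 3 (25.0%) fell, with a median of -0.15. The count was 5 without M2 or M3, 1 without any 1 wild-type array and 0 without M1. Of 16 larval defence genes 18.8% fell, namely *lys-1*, *lys-8* (-1.01, SE 0.26) and the saposin-like *spp-14* (-0.74, SE 0.19). In the saposin family 3 of 21 genes (14.3%) fell, with *spp-18* (-0.95, SE 0.17) and *spp-3* (-0.81, SE 0.21), and 1 did without M1. The larval defence count was 0 without W1 or M1, 1 without W2 or W3 and 4 without M2 or M3.

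The proton pump family split. Of 19 vacuolar ATPase genes 16 had a lower mean, 4 fell (21.1%, against 1.69% of all genes) and 2 rose (10.5%, against 3.83%). *vha-7*, an a-subunit gene, was at 8.75, 8.81 and 8.84 in wild-type and at 10.55, 10.57 and 10.55 in mutant embryos (1.76, SE 0.07, adjusted p = 0.0018). *vha-6*, the a-subunit gene of the intestine, was at 9.82, 9.52 and 9.92 and at 8.52, 8.22 and 9.16 (-1.12, SE 0.26, adjusted p = 0.11). Replicates of *vha-7* agreed within 0.1 units in each group, whereas the mutant arrays of *vha-6* spread over more than 0.9. *vha-18* rose by 1.33 (SE 0.30), and *vha-12* (-0.92, SE 0.23), *vha-13* (-0.66, SE 0.17) and *vha-11* (-0.60, SE 0.16) fell. Of the 6 calls only that of *vha-7* was kept whichever array was left out, and none of the 4 decreases was called without W1, W3 or M1, 1 was without W2 and 2 were without M2. Of the rises, *vha-18* was lost without W1, W2 or M1.

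Galectins, a family of sugar-binding proteins, had a median of -0.86, and 4 of 12 fell, *lec-3* (-1.22, SE 0.33), *lec-11* (-0.76, SE 0.19), *lec-1* (-0.70, SE 0.13) and *lec-6* (-0.62, SE 0.16). *lec-1* was at 8.23, 8.39 and 8.41 in wild-type and at 7.91, 7.48 and 7.53 in mutant embryos, and its call alone was kept whichever array was left out. The galectin count was 1 without W1, W2, W3 or M1 and 9 without M3. Among pharyngeal genes 3 of 22 fell, the gland genes *phat-5*, *phat-2* (-1.42, SE 0.33) and *phat-4* (-1.19, SE 0.24), with a median of -0.42 (-0.26 without M2). *phat-5* was at 10.05, 9.74 and 9.99 and at 8.18, 7.72 and 9.23. The organ identity gene *pha-4* (-0.27, SE 0.11), the myosin gene *myo-2* (-0.53, SE 0.13) and *ceh-22* (-0.82, SE 0.31) did not overlap between groups and were not called. Every mutant array lay below every wild-type array for 14 of the 22 pharyngeal genes and for 17.2% of all genes. The share called down was 33.3% for galectins and 13.6% for pharyngeal genes, against 1.69% of all genes. The pharyngeal count was 0 without W3 or M1, 1 without W1, 5 with the replicate block and 7 without M3.

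**Figure D3:**
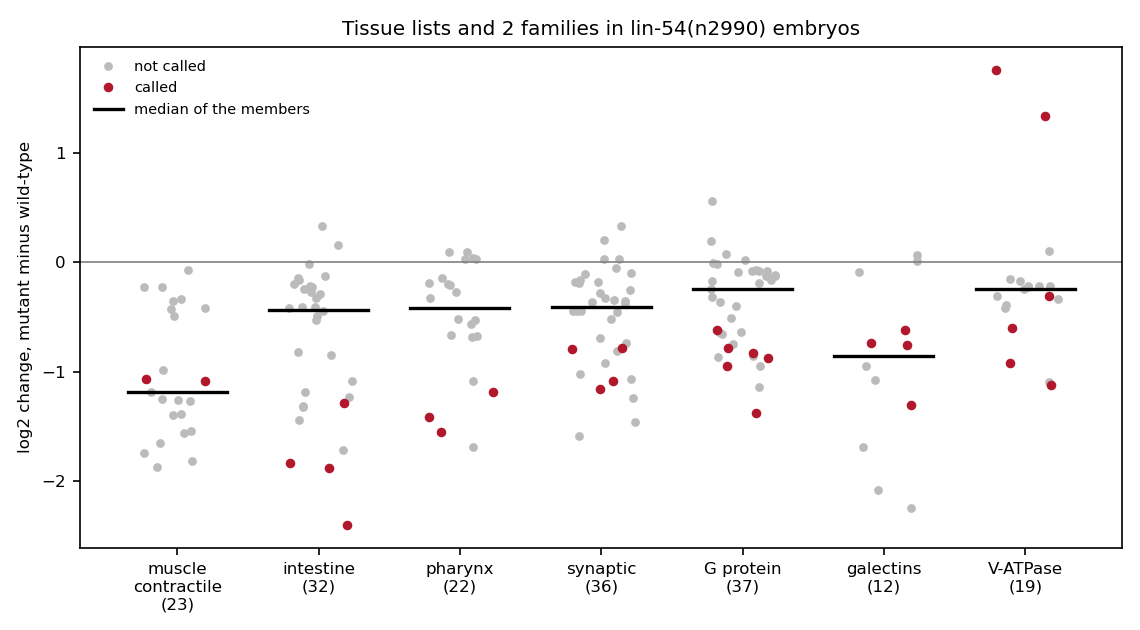
Log2 change (mutant minus wild-type) (mean of a gene's probe sets) of each gene of 5 tissue lists and of the galectin and vacuolar ATPase families, with the number of genes in brackets. Red points are called genes and bars are medians, the lowest being -1.18 for muscle contractile genes, and *vha-7* (1.76) and *vha-18* (1.33) stand above their family.

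Neuronal lists had lower medians with few calls. In the synaptic list 11.1% were called down, against 1.69% of all genes. Of 36 synaptic genes 4 fell, with a median of -0.41. *egl-21*, which encodes the carboxypeptidase that trims neuropeptides, went from 8.73, 8.69 and 8.96 to 7.68, 7.05 and 8.19 (-1.15, SE 0.28) and was present on 3 wild-type and 0 mutant arrays. The proprotein convertase gene *egl-3* went from 9.01, 8.72 and 9.06 to 7.83, 7.76 and 8.35 (-0.95, SE 0.18). Neither gene overlapped between the groups, and every mutant array was the lower for 17.2% of all genes. The GABA-synthesizing enzyme gene *unc-25* (-1.09, SE 0.28) and the dense-core vesicle gene *ida-1* (-0.85, SE 0.21) also fell. *snt-1* (-1.21, SE 0.47), *unc-13* (-1.05, SE 0.48) and *rab-3* (-0.74, SE 0.21), which act in vesicle release, were called with the replicate block but not without it. Without W1 the synaptic count was 1, without W3 or M1 it was 0, and it was 10 with the block, 6 without W2 and 11 without M3.

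Of 10 dense-core peptide genes *flp-1* (-1.35, SE 0.33) and the insulin-like *ins-1* (-0.79, SE 0.17) fell, and of 61 neuropeptide-like *nlp* genes 8 (13.1%) fell and none rose. The largest were *nlp-50* (-1.13, SE 0.29), *nlp-8* (-1.12, SE 0.30), *nlp-80* (-0.91, SE 0.18) and *nlp-49* (-0.89, SE 0.21). *flp-1* was at 7.69, 7.54 and 7.50 and at 6.18, 5.58 and 6.93. Neither dense-core gene was called without W2, W3 or M1, and only *ins-1* was without W1. The *nlp* count was 4, 2 and 1 without W1, W2 and W3, 0 without M1 and 14 without M3. Of 37 G protein and cyclic nucleotide signalling genes 6 fell, with a median of -0.25. They included the G gamma gene *gpc-1* (-1.38, SE 0.25), the protein kinase A regulatory gene *kin-2* (-1.14, SE 0.29), the adenylyl cyclase gene *acy-1* (-0.95, SE 0.23) and *rgs-3* (-0.88, SE 0.21). *gpc-1* was at 6.65, 6.57 and 6.72 in wild-type and at 5.41, 4.69 and 5.70 in mutant embryos, and its call was kept whichever array was left out. The list's count was 2 without W1 or W3, 3 without M1, 10 with the block or without M2 and 12 without M3. The cyclic nucleotide channel genes *tax-2* (-0.09, SE 0.09) and *tax-4* (-0.24, SE 0.11) were not called.

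Neuronal fate genes had a median of -0.28, and 3 of 46 fell, the ankyrin gene *unc-44* (-1.05, SE 0.28) and the homeobox genes *lim-4* (-0.67, SE 0.17) and *unc-4* (-0.61, SE 0.10). *unc-86* (-0.42, SE 0.14) and *mec-3* (-0.18, SE 0.11) were not called. The share called down was 6.52% for neuronal fate, 6.25% for cilium and 5.43% for *unc* genes, against 1.69% of all genes. Among 32 cilium genes 31 were lower, with a median of -0.34 (-0.20 without M2), and *bbs-1* (-0.66, SE 0.15), of the BBSome, and *daf-19* (-0.60, SE 0.13), the RFX factor of ciliated neurons, fell. The calls of all these 5 genes were lost on leaving out 2 or more of the arrays, and that of *bbs-1* was also not made with the replicate block. The neuronal fate count was 1 and 0 without W1 and W3, 2 without M1 or M2 and 10 without M3. The cilium count was 0 without W1, W2, M1 or M2, 1 without W3 and 3 without M3. In the *unc* class, which collects genes of uncoordinated movement of many functions, 5 of 92 fell. Among them was the GABA receptor gene *unc-49* (-0.71, SE 0.12, or -0.36 as the mean of its probe sets), whose call was kept whichever array was left out. The *unc* count was 2 without W1 or M1, 1 without W3, 10 without W2, 9 without M2, 23 without M3 and 19 with the block.

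Epidermal and matrix lists were lower with almost no call. All 35 apical matrix and cuticle genes had a lower mean (median -0.41, or -0.19 without M2). Of these 1 (2.86%, against 1.69% of all genes), the molting gene *mlt-10* (-0.60, SE 0.15), fell. None of 31 epidermal junction genes (median -0.21) and none of 19 basement membrane genes (median -0.27) was called. These 2 medians were -0.10 and -0.17 without M2 and -0.35 and -0.45 without W2. The apical junction gene *ajm-1* changed by -0.89 (SE 0.32) and the collagen IV gene *let-2* by -1.37 (SE 0.50). *dpy-7*, a cuticle collagen gene, was at 12.05, 11.89 and 11.84 in wild-type and at 11.51, 9.73 and 11.83 in mutant embryos. M3 lay within 0.1 units of the lowest wild-type array while M2 was lower by more than 2. With the block 3 genes, *ajm-1* among them, fell in the junction list, 3 in the basement membrane list and 2 in the apical matrix list. Without M3 the counts were 7 apical matrix, 4 junction and 2 basement membrane genes, without M2 they were 1, 1 and 4, and *mlt-10* was lost without W1, W3, M1 or M2. Among 138 collagen genes 129 had a lower mean (median -0.26). Of the 138, 7 (5.07%) fell, against 1.69% of all genes, and 1, *col-38* (0.79, SE 0.19), rose. Among the called genes the largest decreases were in *col-154* (-1.36, SE 0.36), *col-118* (-1.18, SE 0.31), *col-13* (-1.02, SE 0.27) and *col-89* (-0.96, SE 0.24). *col-118* and *col-89* were present on no array. The lowest mean change of a collagen gene was -3.11, in a gene not called. Of the 154 collagen probe sets 86 were present on no array. The collagen count was 31 with the block, 39 without M3, 10 and 2 without W2 and M2, and 0 without any other array.

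In other groups 8.89% of *ttr*, 6.06% of *pqn*, 11.1% of *egl* and 11.5% of *kin* genes were called down. Over all genes the share was 1.69%. Of 45 transthyretin-related genes 4 fell, *ttr-24*, *ttr-44* (-1.20, SE 0.23), *ttr-5* (-1.05, SE 0.28) and *ttr-18* (-0.64, SE 0.16), and of 66 *pqn* genes, whose products hold glutamine- and asparagine-rich stretches, 4 did (*pqn-95*, *pqn-74*, *pqn-35* and *pqn-5*, by -1.40 to -0.67). With the block 8 *ttr* and 7 *pqn* genes fell. Without M3 the counts were 8 and 9, and they were 0 and 0 without M1, 1 and 0 without W3 and 2 and 0 without W1. The *ttr* count was also 2 without W2. In the *egl* class 3 of 27 genes fell, the Gq gene *egl-30* (-0.75, SE 0.16) beside *egl-21* and *egl-3*, while 1 did without W1 or M1 and 0 without W3. In the *kin* class of kinases 2 of 26 rose (*kin-34* 0.88 and *kin-33* 0.68) and 3 fell (*kin-36* -1.21, *kin-2* and *kin-29* -0.71). *kin-36* was not called with the block, no *kin* decrease was called without M1 or any 1 wild-type array, and 1 rise was without W1, W3, M1 or M2. None of 22 heat shock and stress genes was called, with a median of -0.09 (*hsp-4* 0.21, SE 0.11, and *hsp-16.2* 0.74, SE 0.94), though 2 fell with the block, and none of 6 vitellogenins or of 19 spermatogenesis genes. Of 28 insulin, dauer and TGF-beta genes 2 were called, 1 of them the 14-3-3 gene *ftt-2* (-0.67, SE 0.16), none was with the replicate block or without any array other than M3, and *daf-16* changed by -0.35 (SE 0.07).

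The size of the changes differed between the mutant arrays in the same order for nearly all lists. For the 30 lists whose median change was at least 0.2 in either direction, M2 was farthest from the wild-type mean in all 30 and M3 nearest in 29. For muscle contractile genes the median difference from the wild-type mean was -0.91, -2.41 and -0.37 on M1, M2 and M3. For maternal cell-fate genes it was 0.60, 1.02 and 0.05, and for P granule genes 0.60, 1.04 and -0.02. On M3 the median was thus near wild-type level in these maternal and P granule lists, while for synaptonemal complex genes it was 1.15, 1.44 and 0.50. For *fbxb* it was 0.60, 0.88 and 0.47, for *sdz* 0.66, 0.90 and 0.44 and for DRM subunits 0.49, 0.79 and 0.41, and these stayed above wild-type on all 3 mutant arrays. W2 differed from the wild-type mean by 0.25 for maternal cell-fate genes, 0.24 for P granule genes and -0.19 for muscle contractile genes, in the direction of the mutant. The part of embryo age in these results was not tested.

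**Figure D4:**
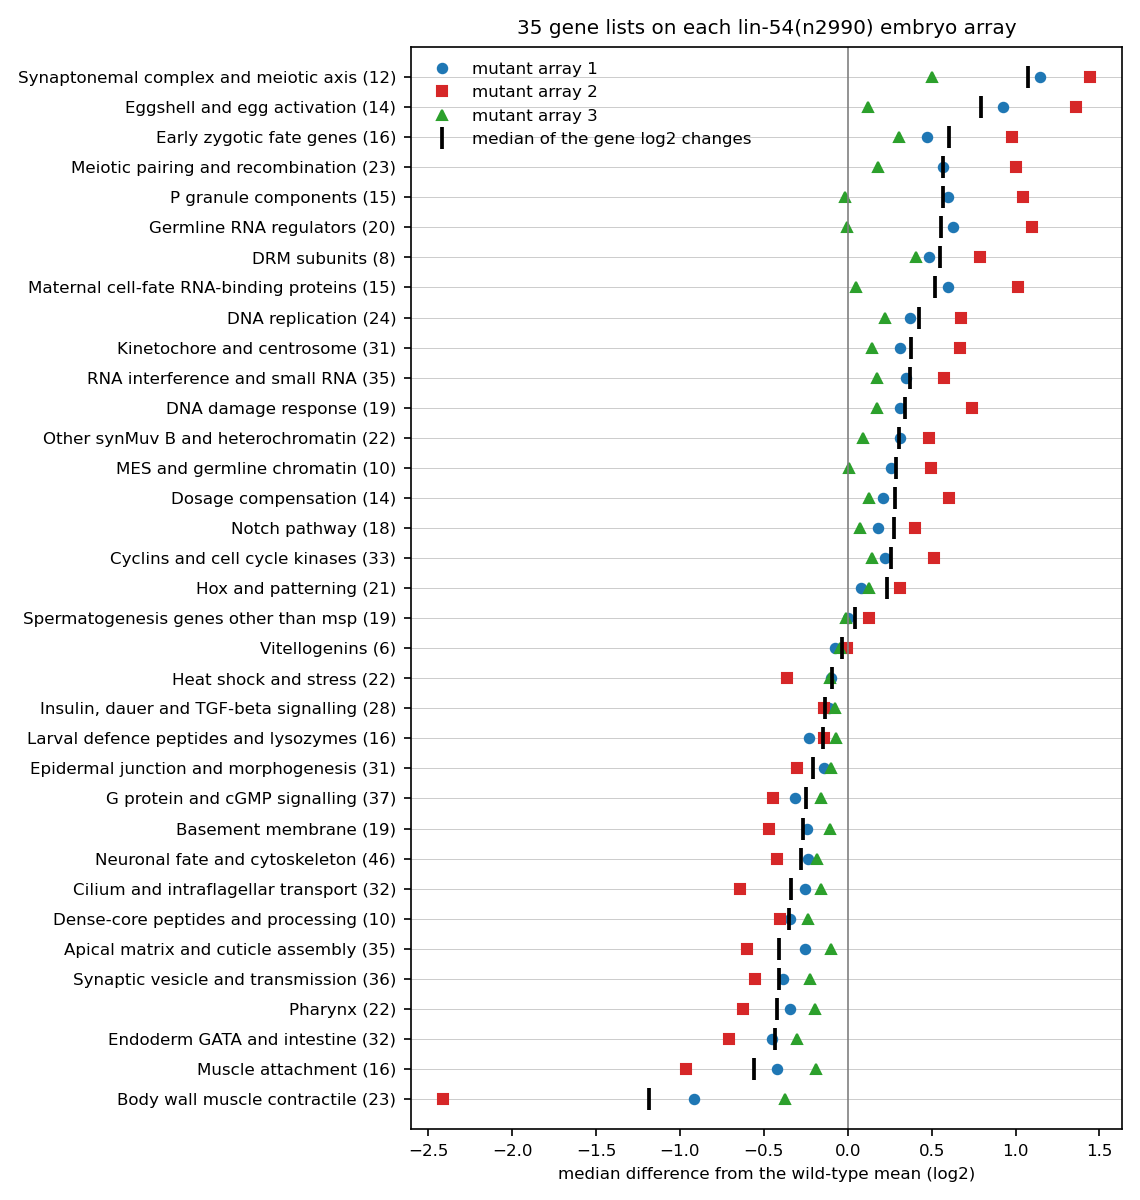
Median difference from the wild-type mean (log2, horizontal axis) over the genes of each of 35 lists on mutant replicates 1 (circles), 2 (squares) and 3 (triangles), with the median gene log2 change as a black bar and the number of genes in brackets. Mutant replicate 2 lies farthest out in nearly every list, from -2.41 for muscle contractile genes to 1.44 for synaptonemal complex genes.

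A subset of the increases differed little in size between the mutant arrays, a split noticed after the values were seen. Over all 677 increases M2 was farthest from the wild-type mean in 583 and M3 nearest in 603. Of the 677 genes called up, 184 differed from the wild-type mean by amounts within 25% of their own mean difference on each of the 3 mutant arrays, and of the 298 called down 18 did. On M1, M2 and M3 the difference was 3.38, 3.74 and 3.31 for *fipr-17*, 2.74, 2.75 and 2.48 for C54D10.10, 1.75, 1.77 and 1.75 for *vha-7* and 1.11, 1.07 and 0.99 for *fbxb-90*. That of *asp-1* was -2.22, -3.80 and -1.18. The call rule itself favours genes whose replicates agree. With every array left out in turn 263 increases and 35 decreases were kept.

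**Figure D5:**
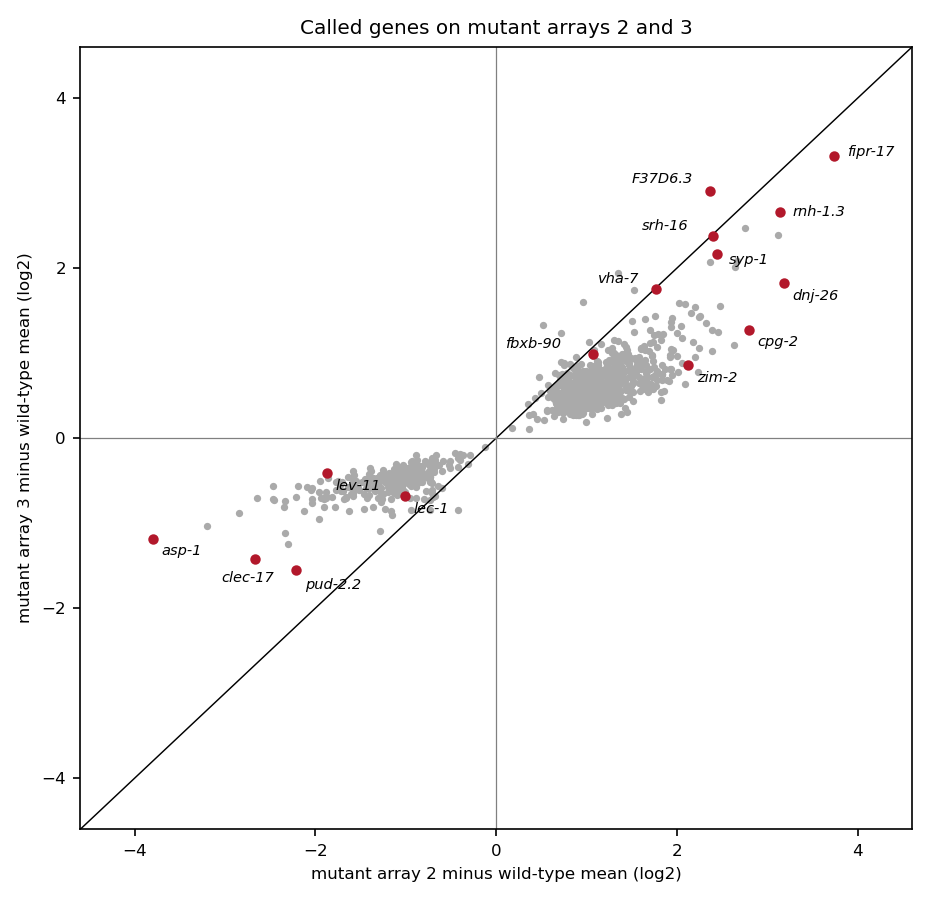
Difference from the wild-type mean (log2) on mutant replicate 2 (horizontal) and mutant replicate 3 (vertical) for the 975 called genes, averaged over a gene's probe sets, with the line of equality. *vha-7*, *srh-16* and *fbxb-90* lie on or near the line, and *asp-1* and *lev-11* lie far from it with larger decreases on replicate 2.

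Detection calls, which the test did not use, changed with genotype for some genes. Of the 21541 probe sets 76 (0.353%) were present on 3 mutant and 0 wild-type arrays, and 112 (0.52%) on 3 wild-type and 0 mutant arrays. Among those also called by the test were probe sets of 26 genes with the first pattern, led by *rnh-1.3*, C33C12.4, *srd-4*, *srh-16* and the acetylcholine receptor gene *acr-17* (1.64), with *glh-1*, *fbxb-33*, *fbxb-2* and *fbxb-6* in the list. The 25 genes with the second were led by *clec-17*, *gfrl-1* (-1.35) and the neprilysin gene *nep-17* (-1.34), with *egl-21*, *lys-8*, *rgs-3*, *lev-11*, *unc-49* and *unc-4* in the list. Since neither was detected in the mutant, *clec-17* was at least 3.73-fold and *egl-21* at least 2.23-fold lower. For *lev-11* this was 1 of its 7 probe sets (-0.87), and not the one given above.

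In germlines of the null allele 15 genes (0.0849%) were called up and 74 (0.419%) down. The authors reported more changed germline genes in both directions at the same cut-offs, and the reason was not tested. The values stand side by side only, since allele, temperature, amplification and normalization differed. *fipr-17* (3.48 in embryos and 3.52, SE 0.79, in germlines) and C54D10.10 (2.66 and 3.46) were called up in both, as was *srh-16* (2.42 and 0.68). In the present fits *rnh-1.3* (2.96 and 0.09), F37D6.3 (2.71 and -0.07), *vha-7* (1.76 and -0.17) and *glh-1* (1.12 and 0.19) were called in embryos only. *lin-54* itself changed by 0.42 in n2990 embryos and by -2.17 in n3423 germlines. *syp-1*, which rose by 2.35 in embryos, was not called in germlines.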

How the data were processed

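Expression was measured on Affymetrix *C. elegans* arrays, 1 array per biological replicate. The authors computed the deposited log2 expression levels by RMA with the affy package, for embryos and germlines separately, beside a detection call for each probe set. Columns of the authors' own comparison (fold changes and p-values from limma) were not used. Gene symbols were updated through a RefSeq table, which matched 94.1% of the genes.

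The deposited values were fitted with limma 3.58.1 (R 4.3.3) by lmFit and eBayes, mutant against wild-type, on 3 arrays each and without a block. Calls needed an unadjusted p no higher than 0.01 together with a 1.5-fold difference. Adjusted p-values are Benjamini-Hochberg values over all 21541 probe sets. Promoter motifs were not searched, since no promoter sequences were used here. Levels and changes of a gene with several probe sets are those of its passing probe set with the lowest p, or of that with the lowest p where none passed, and list and family medians use the mean of a gene's probe sets. For some genes that mean was much smaller than the change given, as for *vha-13* (-0.31 against -0.66) and F18A11.5 (-0.78 against -1.48). In simulated data of 21541 probe sets the test called 38.8%, 86.6% and 100% of probe sets changed 1.5-, 2- and 4-fold, and 0.389% of unchanged ones. The simulated 1.5-fold change equals the fold cut-off, so many estimates fall below it by construction. Noise was drawn independently for each probe set and array, whereas same-numbered arrays deviated together in the data. The 0.389% therefore need not hold for these data. The number of arrays limits the precision.

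Named are the 15 largest changes each way among called genes without overlap, preset anchor genes of each list, up to 4 called genes per direction in each list or family, and called transcription factors of 5 classes. Families were described where at least 3 members were called at 2 or more times the share of all genes. Members and lists were chosen with earlier results of these data known. Deviations of same-numbered mutant and wild-type arrays correlated at 0.246, 0.362 and 0.276, and those of M3 and W1 at 0.2355. The other pairs ran from -0.350 to 0.016. The labels give replicate numbers without saying that they mark pairs, and M3 correlated with W1 nearly as well as with W3. The main fit treated the samples as unpaired, and the numbers served as a block in an alternative fit only. Alternatives were the block, other thresholds, probe set filters, scalings, a variance trend, gene means and leaving out each array. 1 result of the insulin, dauer and TGF-beta list is not reported here.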

Additional observations from a re-analysis of the deposited data

Results flagged for a closer look

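The F-box genes *fbxb-67* and *fbxc-32* moved in opposite directions in the 2 tissues. The log2 change of *fbxb-67* was 1.18 in n2990 embryos and -0.88 in n3423 germlines, and that of *fbxc-32* was 1.17 and -0.82. For each gene every mutant embryo array lay above, and every mutant germline array below, all wild-type arrays of its tissue. The difference between tissues was not tested, and allele, temperature and labelling differed with tissue.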

How the results depend on the processing

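Same-numbered arrays deviated together, as did M3 and W1. The replicate block raised the count of decreases from 298 to 677, while 572 of the 677 increases and 262 of the 298 decreases were called in both fits. An adjusted p of 0.05 left 51 increases and 3 decreases, and a fold change of 2 left 230 and 83. Leaving out 1 array gave 347 to 1334 increases and 72 to 1056 decreases, and 57 of the 184 named called genes kept their call throughout. With 3 arrays a group and a cut-off of 1.5-fold, changes near that size are often missed. The cause of the shifts below was not tested. Median centring moved the median of all genes from 0.01 to 0.10.

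With only probe sets present on at least 3 of 6 arrays, list medians were -0.23 for spermatogenesis, -0.85 for intestine, -0.67 for pharynx, -0.63 for G protein signalling, -0.48 for dense-core peptides, -0.33 for epidermal junctions, -1.01 for larval defence and -0.19 for insulin and dauer genes. Family medians were -1.72 for *asp*, 0.43 for *bath*, -1.24 for *col*, 0.04 for *dhs*, -0.25 for *egl*, 0.56 for *fbxc*, -0.12 for *kin*, -0.41 for *nlp*, -0.77 for *spp* and -0.79 for *ttr*. No vitellogenin probe set was left. With median centring they were 0.14 for spermatogenesis, -0.18 for neuronal fate, -0.25 for dense-core peptides, -0.11 for epidermal junctions, -0.05 for larval defence, -0.04 for insulin and dauer, -0.16 for *col*, 0.06 for *dhs*, -0.10 for *egl*, 0.04 for *kin*, -0.06 for *nlp*, -0.02 for *pqn*, -0.20 for *spp*, -0.11 for *ttr* and -0.15 for *vha*. Repeated quantile normalization gave 0.11 for spermatogenesis, -0.08 for larval defence, -0.20 for *col*, -0.20 for *spp* and -0.29 for *vha*. Probe sets with unshared names gave -0.24 for pharynx, -0.58 for larval defence, -0.20 for *col* and 0.15 for *prp*.

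With each array left out in turn, medians ranged from 0.33 to 0.79 for P granule, 0.35 to 0.83 for meiotic pairing, 0.23 to 0.85 for germline RNA, 0.25 to 0.81 for maternal cell-fate and 0.51 to 1.14 for eggshell genes, from -1.66 to -0.66 for muscle contractile, -0.70 to -0.29 for muscle attachment, -0.50 to -0.20 for cilium and -0.45 to -0.17 for basement membrane genes, and from 0.16 to 0.31 for Notch, 0.21 to 0.46 for DNA damage, 0.16 to 0.39 for MES, 0.12 to 0.41 for dosage compensation, -0.01 to 0.07 for spermatogenesis and -0.12 to 0.05 for vitellogenin genes. They ranged from -0.52 to -0.26 for pharynx, -0.37 to -0.20 for G protein signalling, -0.35 to -0.10 for epidermal junctions and -0.49 to -0.19 for apical matrix genes. The ranges were 0.11 to 0.28 for Hox and patterning, 0.15 to 0.42 for other synMuv B and heterochromatin and -0.16 to -0.10 for insulin and dauer genes. Family medians ranged from -0.23 to -0.06 for *asp*, 0.15 to 0.37 for *set*, -0.33 to -0.24 for *col*, -0.03 to 0.03 for *dhs* and -0.24 to -0.14 for *egl*. The ranges were -0.07 to -0.01 for *kin*, -0.22 to -0.13 for *nlp* and 0.19 to 0.47 for *prp*. For *spp* the range was -0.38 to -0.11, for *ttr* -0.26 to -0.12 and for *vha* -0.33 to -0.23.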
